A study of Mus musculus with 2 samples.

Results

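The 10 core circadian clock genes Arntl, Clock, Npas2, Per1, Per2, Per3, Cry1, Nr1d1, Nr1d2 and Ciart were examined, out of 19073 features counted in each library. They were chosen by name as the transcription loop of the clock, with earlier results of these data known. All 10 were detected in hepatocytes of both libraries. The samples were 2 libraries of fixed liver cells from male p16-Tom mice, 1 library of Tom- cells (p16low) and 1 of Tom+ cells (p16high). Both came from mice given carbon tetrachloride (CCl4), a liver toxin used to induce fibrosis, for 4 weeks together with Tamoxifen, so no group without injury was measured. The mice were heterozygous for p16-CreERT2 and for R26-CAG-LSL-tdTomato-WPRE, and Tamoxifen lets the Cre recombinase switch on the red protein tdTomato for good in cells that use the p16Ink4a promoter at that time. The colour is thus a record of p16Ink4a promoter use at labelling and not of the p16Ink4a level at harvest. Tissue was fixed before dissociation, and cells with a nuclear dye (Hoechst) and a mitochondrial dye (MitoBrilliant 646) were sorted by the red colour and counted with pairs of probes that hybridise to short targets of each transcript. The hour of harvest, the number of mice and whether the 2 libraries came from the same animals are not given in the sources used here.

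The circadian clock of mammals is a transcription loop that runs in nearly every cell. ARNTL (BMAL1) pairs with CLOCK or its relative NPAS2 and switches on genes through a DNA element called the E-box. Among the genes switched on are the Per and Cry genes, whose proteins return to the nucleus and block ARNTL and CLOCK, and Ciart, which encodes a further repressor of the pair. Nr1d1 and Nr1d2 (REV-ERB alpha and beta) are also switched on through E-boxes, and their proteins repress Arntl, Npas2 and Clock through ROR elements, where the ROR receptors act as activators. D-boxes, the element bound by DBP, TEF, HLF and their repressor NFIL3, add a further input, with the Per genes among their targets. In liver the E-box genes and the activators Arntl, Clock and Npas2 therefore peak at opposite times of day, and Cry1 peaks later than the other E-box genes. Liver clock timing follows feeding, glucocorticoids and the light cycle, and Per1 and Per2 also respond directly to glucocorticoids and to acute signals.

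Promoter windows are shown for the members on which the results turn. Per3 and Npas2 had the widest ratios between Tom+ and Tom- hepatocytes, and Ciart and Cry1 were among the members lower at the central vein end of the lobule. Sequences are from RefSeq on GRCm38.p6, run from 250 bases before to 50 bases after an annotated start, and are written 5′ to 3′ on the strand of the gene. The windows lie at chr4:151044616-151044915 (minus strand) for Per3, chr1:39194022-39194321 (plus strand) for Npas2, chr3:95882179-95882478 (minus strand) for Ciart and chr10:85185005-85185304 (minus strand) for Cry1. Capitals mark matches on either strand to the E-box CACGTG or the D-box TTATGTAA. Npas2 is shown as a window with no match to these or to the ROR half-site AGGTCA, as was that of Nr1d1.
Per3: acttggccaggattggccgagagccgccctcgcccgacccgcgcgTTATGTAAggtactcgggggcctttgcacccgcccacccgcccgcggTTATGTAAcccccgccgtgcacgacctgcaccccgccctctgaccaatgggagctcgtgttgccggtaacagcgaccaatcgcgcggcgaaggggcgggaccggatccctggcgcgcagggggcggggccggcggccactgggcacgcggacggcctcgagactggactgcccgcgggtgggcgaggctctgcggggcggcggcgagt
Npas2: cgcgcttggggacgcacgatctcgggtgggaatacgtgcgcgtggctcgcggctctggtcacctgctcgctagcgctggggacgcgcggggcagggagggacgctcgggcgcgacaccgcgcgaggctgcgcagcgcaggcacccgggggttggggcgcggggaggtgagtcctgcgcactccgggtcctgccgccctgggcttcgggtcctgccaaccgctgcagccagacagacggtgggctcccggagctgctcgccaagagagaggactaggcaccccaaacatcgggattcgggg
Ciart: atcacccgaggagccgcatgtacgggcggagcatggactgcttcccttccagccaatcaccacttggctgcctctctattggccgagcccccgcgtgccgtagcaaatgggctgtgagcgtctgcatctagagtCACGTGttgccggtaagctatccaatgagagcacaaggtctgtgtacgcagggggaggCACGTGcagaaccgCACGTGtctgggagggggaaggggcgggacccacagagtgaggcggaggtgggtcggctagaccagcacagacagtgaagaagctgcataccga
Cry1: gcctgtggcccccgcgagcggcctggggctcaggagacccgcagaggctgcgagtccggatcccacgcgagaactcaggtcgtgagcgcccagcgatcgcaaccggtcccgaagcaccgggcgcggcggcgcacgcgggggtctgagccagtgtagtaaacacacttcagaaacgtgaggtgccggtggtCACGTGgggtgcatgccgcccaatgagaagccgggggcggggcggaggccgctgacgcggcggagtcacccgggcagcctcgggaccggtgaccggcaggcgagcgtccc
Windows were found for 9 of the 10 members, 13 windows in all, and none for Per2. The E-box letters were in a window of 3 members (Ciart, Cry1 and Per1), the D-box letters in 1 (Per3), and the ROR half-site in 4 (Arntl, Clock, Nr1d2 and Per1). Of 32851 such windows over all genes, 7.15% held the E-box letters, 0.938% the D-box letters and 16.3% the ROR half-site. These shares are per window, while a member counts with a match in any of its windows, so they are not in the same unit. A match is a description of the letters and not a binding site, and clock elements are also known in introns and further upstream, outside these windows.

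The Tom- library held 23220 barcodes and 681279005 UMIs (unique molecular identifiers, 1 per captured probe pair), and the Tom+ library 16339 barcodes and 715333889 UMIs. The 2 libraries shared 503 barcodes, 372 of them among cells that passed the filters in both. After the study's filters on genes, UMIs and mitochondrial share and removal of clusters with few genes or with blood, stromal or endothelial markers, 11067 Tom- and 10026 Tom+ hepatocytes were left, with medians of 32389 and 35397 UMIs. All 6 hepatocyte markers were detected in both, with a summed level of 147881 CPM (the UMIs of a gene over a group of cells, scaled to the same total of UMIs in every group) in Tom- and 140942 CPM in Tom+ hepatocytes. The summed levels of marker lists of other cells were 68.8 and 53.5 CPM for endothelial cells, 268.4 and 217.8 CPM for macrophages and 58.9 and 63.8 CPM for stellate cells or fibroblasts. Each group had 1 library, so there is no replicate spread, no test and no p-value. Values are given with exact 95% Poisson intervals, which cover counting error only, and every difference compares these 2 libraries and not the conditions. Probes differ in capture, so levels are compared for 1 gene at a time and not between genes.

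Most clock genes differed little between Tom+ and Tom- hepatocytes, with Per3 higher and Npas2, Cry1, Per1 and Clock lower in Tom+. Arntl (ENSMUSG00000055116, chr7:113207465-113314126, mm10), the shared partner of the activator pair, had 7.22 CPM in Tom- from 2863 UMIs and 8.44 CPM in Tom+ from 3369 UMIs (log2 of Tom+ over Tom- 0.22, interval 0.15 to 0.30), and the Arntl ratio was 0.076 with cells thinned to 5000 UMIs. Clock (ENSMUSG00000029238, chr5:76209868-76304792) had 36.5 CPM in Tom- and 32.0 CPM in Tom+ (log2 -0.19, -0.23 to -0.16). Npas2 (ENSMUSG00000026077, chr1:39193731-39363236) had 13.8 CPM in Tom- and 10.1 CPM in Tom+ (log2 -0.45, -0.51 to -0.39). Both partners of Arntl were thus lower in Tom+ over all hepatocytes, while Arntl was higher there but not in every part of the lobule, as given with the lobule bins.

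Among the Per genes, which encode the core repressors, Per1 (ENSMUSG00000020893, chr11:69095217-69109960) was at 156.8 CPM in Tom- and 126.0 CPM in Tom+ (log2 -0.31, -0.33 to -0.30). Per2 (ENSMUSG00000055866, chr1:91415982-91459324) had 25.7 CPM in Tom- and 27.1 CPM in Tom+ (log2 0.08, 0.04 to 0.12). Per3 (ENSMUSG00000028957, chr4:151003652-151044665) was at 13.6 CPM in Tom- from 5405 UMIs and 21.5 CPM in Tom+ from 8576 UMIs (log2 0.66, 0.61 to 0.71). Each Per gene therefore went its own way, and Per3 had the widest ratio of the 10. Cry1 (ENSMUSG00000020038, chr10:85131700-85185064), which encodes the late repressor, had 16.6 CPM in Tom- and 12.8 CPM in Tom+ (log2 -0.37, -0.42 to -0.32).

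The REV-ERB genes had nearly the same levels in both libraries. Nr1d1 (ENSMUSG00000020889, chr11:98767932-98775333) was at 121.3 CPM in Tom- and 120.1 CPM in Tom+ (log2 -0.01, -0.03 to 0.00). Nr1d1 shares part of its locus with Thra on the other strand, and how the probes tell them apart was not tested. Nr1d2 (ENSMUSG00000021775, chr14:18204054-18239127) had 94.2 CPM in Tom- and 92.2 CPM in Tom+ (log2 -0.03, -0.05 to -0.01). Ciart (ENSMUSG00000038550, chr3:95878503-95882251) was at 1.75 CPM in Tom- from 692 UMIs and 2.02 CPM in Tom+ from 806 UMIs (log2 0.21, 0.06 to 0.36).

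**Figure D1:**
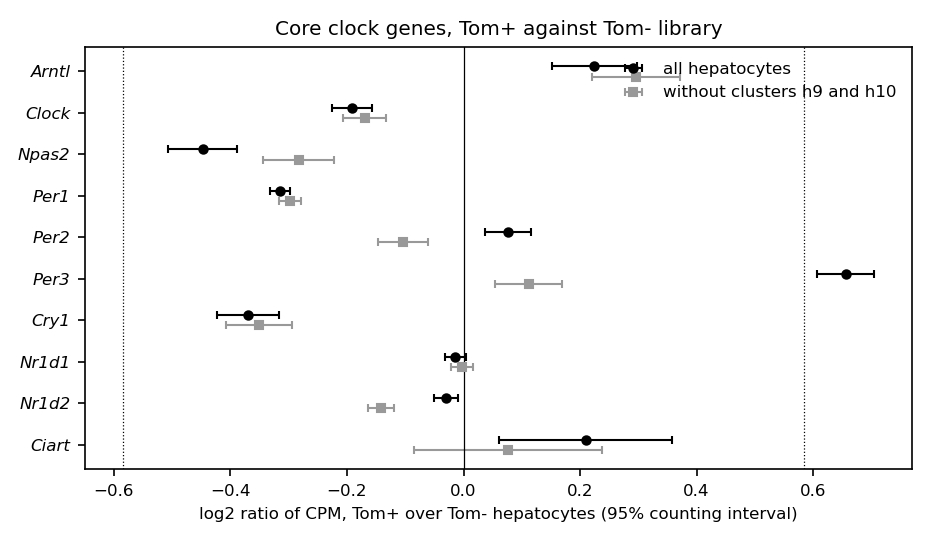
Log2 ratio of Tom+ over Tom- level (x axis) for each of the 10 clock genes (y axis) in all hepatocytes and in hepatocytes without clusters h9 and h10; bars are 95% counting intervals, with 1 library per group. Per3 sits at 0.66 with all hepatocytes and at 0.11 without the 2 clusters, and Npas2 at -0.45 and -0.28.

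A gene was counted as past 1.5-fold at 10 CPM or more in either library and 20 UMIs over both. By this count 1 of the 8 clock genes that reached the minimum was higher in Tom+ (Per3) and 0 were lower, while 1.53% of all 7835 genes that reached it were higher and 0.485% were lower. Arntl and Ciart were under 10 CPM in both libraries. The median log2 ratio was -0.11 over the 8 clock genes and 0.04 over all genes. Of 11 accessory genes (among them the repressor Cry2, DEC1 and DEC2, and kinases of PER proteins), 8 reached the minimum and 0 were past 1.5-fold. Among them Csnk1e, a kinase of PER proteins that was under 10 CPM, was at a log2 ratio of 0.43, and Bhlhe40 (DEC1) at -0.37. Of 11 output genes, 10 reached the minimum and 1 was higher, Dbp, the PAR bZIP factor that binds D-boxes, at 8.88 CPM in Tom- and 22.5 CPM in Tom+ (log2 ratio 1.34). Its relatives Tef (0.31) and Hlf (0.13) and the D-box repressor Nfil3 (-0.08) had smaller log2 ratios, and Wee1, which encodes a cell cycle kinase, was at 1.2 but under 10 CPM. Lists of acute signals that also act on Per1 and Per2 gave 1 lower of 8 immediate early genes (Fos) and 0 past the limit of 6 glucocorticoid response genes, with medians of -0.05 and -0.19.

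Over all hepatocytes pooled, most of the Per3 ratio lay in 2 clusters that were almost all Tom+. Within the lobule bins, given below, more of it remained without them. Hepatocytes were clustered without the clock genes, Dbp, Tef, Hlf, Nfil3 or the accessory genes among the variable genes, which gave 14 clusters, h0 to h13. Cluster h9 held 38 Tom- and 1501 Tom+ cells and had 11 zone 3 markers higher than in the other clusters, led by H2-Q1, Ces2c, Snhg11 and Dbp. Cluster h10 held 34 Tom- and 447 Tom+ cells and had 9 zone 1 markers higher, led by Orm3, Chrna4 and Dbp. The 2 clusters thus differed in their zone markers. In Tom+ hepatocytes Per3 was at 49.9 CPM in h9 and h10 and 14.5 CPM in the others, a log2 difference of 1.78 (1.72 to 1.84). Npas2 was at 5.03 and 11.4 CPM there, a log2 difference of -1.18 (-1.33 to -1.03). Per2 was at 40.4 and 23.9 CPM (0.76, 0.70 to 0.82), Nr1d2 at 120.5 and 85.3 CPM (0.50, 0.47 to 0.53) and Ciart at 2.80 and 1.83 CPM (0.62, 0.39 to 0.84). These 4 E-box genes were all higher in the 2 clusters. Arntl was lower at 6.65 against 8.88 CPM (-0.42, -0.55 to -0.28), while Clock (-0.12), Per1 (-0.09), Cry1 (-0.10) and Nr1d1 (-0.05) lay within 0.15 of the other hepatocytes.

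The 72 Tom- cells of h9 and h10 had the same order for the leading genes. Per3 was at 56.6 CPM against 13.4 CPM in the other Tom- hepatocytes, a log2 difference of 2.07 (1.77 to 2.36) on 99 UMIs. Per2 was at 44.6 against 25.6 CPM (0.80, 0.46 to 1.12) and Npas2 at 8.01 against 13.8 CPM on 14 UMIs (-0.79, -1.66 to -0.04). Nr1d1 was at 151.6 against 121.2 CPM in Tom- cells (0.32, 0.14 to 0.50), the opposite sign to Tom+ cells (-0.05, -0.08 to -0.02). By the 1.5-fold count Per2 and Per3 were higher and Npas2 lower of 8 clock genes in each library. The share of all genes higher was 2.61% in Tom+ and 16% in Tom-, and the share lower was 0.809% and 1.49%. The clusters were formed from these cells, so the counts describe them and are no test. Dbp, kept out of the clustering as well, was at 65.5 against 12.02 CPM in Tom+ and 77.2 against 8.57 CPM in Tom-. Beside Dbp, the output genes Tef and Wee1 were past 1.5-fold higher in both libraries, and the immediate early genes Fos and Btg2 and the metal-binding gene Mt2 of the glucocorticoid list were lower in both.

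Without h9 and h10 the Per3 log2 ratio of Tom+ over Tom- hepatocytes was 0.11 (0.05 to 0.17), at 14.5 and 13.4 CPM. Npas2 was at 11.4 and 13.8 CPM (-0.28), Clock at -0.17, Per1 at -0.30, Cry1 at -0.35 and Arntl at 0.30. Thus the lower Npas2, Clock, Per1 and Cry1 and the higher Arntl of Tom+ hepatocytes were still there without the 2 clusters. Per2 turned from 0.08 to -0.10 (-0.15 to -0.06). With the 2 clusters left out 0 of 8 clock genes were past 1.5-fold, against 1.03% of 7802 genes higher and 0.359% lower.

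The lobule was divided into 5 bins of equal cell number by a score of zone 3 (central vein) minus zone 1 (portal) markers, over both libraries together. The libraries filled them unequally, with 2997, 2799, 2604, 1562 and 1105 Tom- cells and 1222, 1420, 1614, 2657 and 3113 Tom+ cells from the portal to the central end. The zone 3 marker Glul went from 5.99 CPM in bin 1 to 286.7 CPM in bin 5 of Tom- and from 11.2 to 365.7 CPM in Tom+, and the zone 1 marker Sds from 2544 to 208.6 CPM and from 2585 to 133.7 CPM. A bin is a range of this score and not a cell type.

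Several repressor genes were lower toward the central vein, while Clock, Nr1d1 and Nr1d2 were nearly flat. Per2 was at 38.3, 27.3, 19.4, 15.7 and 13.6 CPM in bins 1 to 5 of Tom- hepatocytes, and at 44.4, 35.4, 22.7, 21.4 and 22.8 CPM in Tom+. The log2 difference of bin 5 over bin 1 was -1.49 (-1.63 to -1.36) in Tom- and -0.96 (-1.04 to -0.89) in Tom+. Cry1 was at 20.3 CPM in bin 1 and 11.1 CPM in bin 5 of Tom- (-0.87, -1.03 to -0.72) and at 15.3 and 11.1 CPM in Tom+ (-0.46, -0.59 to -0.34). Without h9 and h10 the Tom+ difference was -1.41 (-1.51 to -1.31) for Per2 and -0.67 (-0.81 to -0.53) for Cry1. The slopes of both repressors thus had the same sign in both libraries, and the Tom+ slopes lay nearer those of Tom- without the 2 clusters. Ciart was at 2.39 and 0.56 CPM in Tom- (-2.09, 20 UMIs in bin 5) and at 3.26 and 1.31 CPM in Tom+ (-1.32). Per1 was at 169.5 and 124.0 CPM in Tom- (-0.45) and at 138.4 and 116.0 CPM in Tom+ (-0.25). Arntl went the other way in both, from 5.76 to 9.34 CPM in Tom- (0.70, 0.50 to 0.89) and from 5.73 to 9.10 CPM in Tom+ (0.67, 0.49 to 0.85). With cells thinned to 5000 UMIs the difference between the end bins was smaller in Tom- for Arntl (0.23) and for Ciart (-0.70), with the same signs.

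The lobule profile of Per3 differed in shape between the libraries. It was at 15.7, 15.1, 13.04, 10.3 and 9.59 CPM from bin 1 to bin 5 of Tom- (-0.72, -0.89 to -0.55) and at 22.5, 22.2, 19.3, 19.4 and 23.7 CPM in Tom+ (0.07, -0.02 to 0.17). Without h9 and h10, Per3 in Tom+ was at 17.3 CPM in bin 1 and 13.6 CPM in bin 5 (-0.35, -0.48 to -0.21), so that it was again lower at the central end. Npas2 was highest in the middle of the lobule, at 12.6, 14.0, 15.6, 15.1 and 10.7 CPM in Tom- and 9.30, 10.4, 12.1, 11.9 and 7.70 CPM in Tom+.

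**Figure D2:**
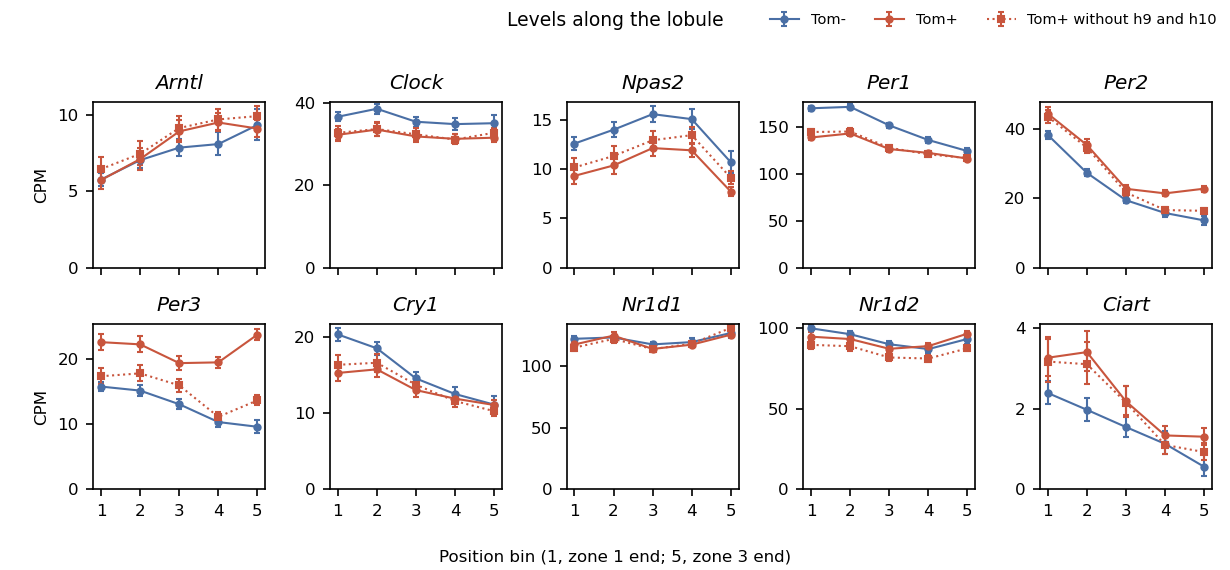
Level in CPM (y axis, linear from 0 with its own range for each gene) of the 10 clock genes in 5 bins of the lobule score, from the portal end (bin 1) to the central vein end (bin 5), in Tom- and Tom+ hepatocytes and, dotted, in Tom+ hepatocytes without h9 and h10; bars are 95% counting intervals. Per2 goes from 38.3 to 13.6 CPM in Tom- and from 44.4 to 22.8 CPM in Tom+, Per3 from 15.7 to 9.59 CPM and from 22.5 to 23.7 CPM, and Clock, Nr1d1 and Nr1d2 are nearly level.

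Between the outermost bins 3 of 8 clock genes were past 1.5-fold lower at the central end in Tom- (Per2, Per3 and Cry1) and 1 of 7 in Tom+ (Per2), with 0 higher in either. Of all genes 5.19% in Tom- and 5.18% in Tom+ were lower, and 10.8% and 12% were higher. Without h9 and h10 the count in Tom+ was 2 of 8 (Per2 and Cry1), against 5.56% of all genes lower. The median log2 difference over the clock genes was -0.34 in Tom- and -0.03 in Tom+, and over all genes 0.17 and 0.22. The zone 1 and zone 3 markers that define the bins hold no clock gene. Among the accessory genes Bhlhe40 was past 1.5-fold lower in both libraries and Cry2 in Tom-. Among the output genes Usp2 and Alas1, the rate-limiting enzyme of haem synthesis, were higher in both, Noct, which encodes the circadian nocturnin, was lower in both, and Dbp was lower in Tom-. Of the immediate early list Fos, Jun and Egr1 were higher at the central end in both.

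Within each bin, Per2 and Per3 were higher and Npas2 and Clock lower in Tom+. The log2 ratio of Tom+ over Tom- for Per3 was 0.52, 0.55, 0.57, 0.92 and 1.31 in bins 1 to 5, and 0.15, 0.25, 0.31, 0.13 and 0.52 without h9 and h10. For Per2 it was 0.21, 0.37, 0.23, 0.44 and 0.74, and 0.19, 0.35, 0.17, 0.08 and 0.27 without them. The point value of the Per2 ratio without the 2 clusters was thus above 0 in all 5 bins, at 0.08 in bin 4. It was -0.10 over all bins together, where the Tom+ cells lay more at the central end. The Per3 ratio without them was likewise larger in each bin, at 0.13 to 0.52, than over all bins together (0.11). Intervals of these Per2 and Per3 values within bins are not given. Npas2 was at -0.44, -0.43, -0.36, -0.34 and -0.47, and from -0.31 to -0.17 without h9 and h10. Arntl was at -0.01, 0.01, 0.18, 0.23 and -0.04, with an interval above 0 in bins 3 and 4 only, so the higher Arntl of Tom+ hepatocytes did not hold in bins 1, 2 and 5. The lower Cry1 of Tom+ hepatocytes was found mostly at the portal end, at -0.41, -0.23, -0.16, -0.07 and -0.01.

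Depth per cell also moved with the levels. Hepatocytes were split into 3 ranges of UMIs per cell, of 3911 to 26208, 26209 to 42985 and 42986 to 99975. Arntl was at 12.8 CPM in the lowest and 4.75 CPM in the highest range of Tom- (log2 -1.44) and at 12.2 and 7.08 CPM in Tom+ (-0.78). Nr1d1 was at 149.2 and 109.8 CPM in Tom- (-0.44) and at 143.8 and 112.5 CPM in Tom+ (-0.35). Arntl was the 1 clock gene of 9 past 1.5-fold lower in each library, where 12.3% of all genes in Tom- and 2.47% in Tom+ were lower. Depth differed by zone and cluster too, and its part in these levels was not tested.

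The balance of the 2 limbs of the loop was summarised as a phase contrast, the mean log2 CPM of 6 E-box genes (Nr1d1, Nr1d2, Per1, Per2, Per3 and Ciart) minus the mean log2 CPM of the 3 activators (Arntl, Clock and Npas2). It is a relative measure at 1 unknown hour and does not convert to hours. In hepatocytes it was 1.06 (1.03 to 1.09) in Tom- and 1.30 (1.27 to 1.33) in Tom+, a difference of 0.24 (0.19 to 0.28). The difference was 0.10 (0.07 to 0.13) when the UMIs of each limb were summed, which gives Per1, Nr1d1 and Nr1d2 most of the weight. With 1 gene left out at a time it ran from 0.08 without Npas2 and 0.12 without Per3 to 0.42 without Arntl. The sign was thus the same in each case, and the size rested most on Npas2 and Per3 on one side and Arntl on the other.

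The contrast varied more between lobule positions than between libraries. From bin 1 to bin 5 it was 1.45, 1.14, 0.84, 0.64 and 0.52 in Tom- and 1.79, 1.58, 1.11, 0.97 and 1.28 in Tom+. It was thus lower in each bin nearer the central vein in Tom-, and lowest in bin 4 in Tom+. With the UMIs of each limb summed the fall was smaller, at 3.02, 2.86, 2.74, 2.67 and 2.74 in Tom- and 3.15, 3.04, 2.81, 2.81 and 2.99 in Tom+, so that bin 5 of Tom- was not below bin 4. In clusters h9 and h10 together it was 2.29 (1.83 to 2.75) in Tom- and 2.20 (2.13 to 2.28) in Tom+, above every other hepatocyte cluster of 100 or more cells in that library. Without them the contrast of all hepatocytes was 1.05 in Tom- and 1.05 in Tom+, a difference of -0.01 (-0.05 to 0.04). With 1 gene left out at a time this value took either sign, from -0.12 (-0.17 to -0.07) without Npas2 to 0.17 (0.12 to 0.21) without Arntl. Within the bins, however, the difference without h9 and h10 was 0.15, 0.29, 0.15, 0.01 and 0.31. With the limbs summed it was 0.041, 0.11, 0.0015, 0.015 and 0.080, and the interval held 0 in each bin except bin 2. Whether the libraries differed within bins without the 2 clusters thus depended on the form of the contrast. In the 3 depth ranges, with all hepatocytes, the difference was 0.41, 0.20 and 0.16.

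**Figure D3:**
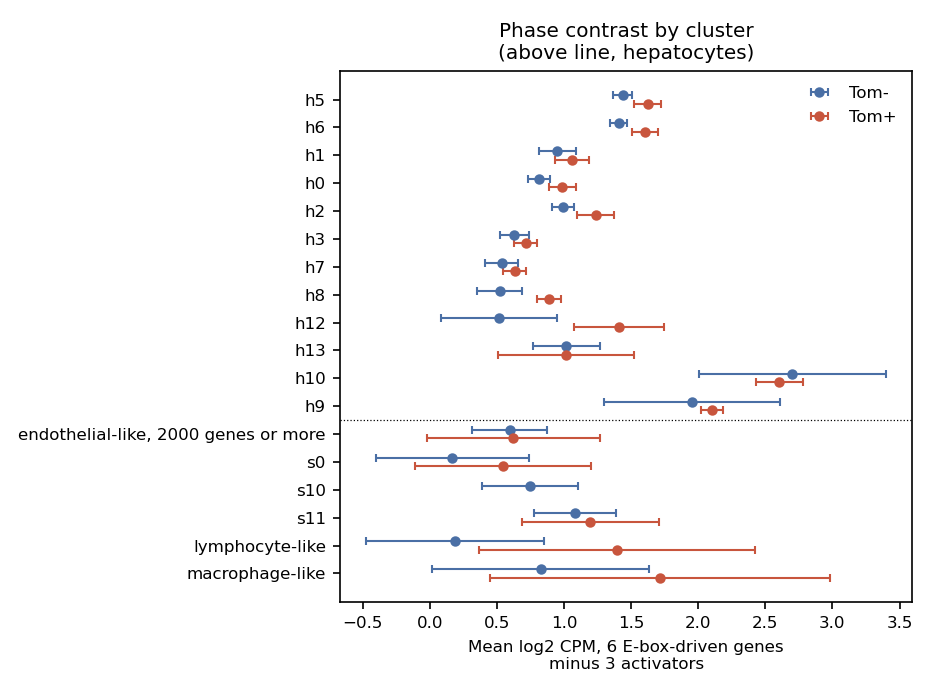
Phase contrast (x axis, mean log2 CPM of 6 E-box genes minus 3 activators) in the hepatocyte clusters apart from h4 and h11, which are not drawn (above the line), and in other cells (below the line), for Tom- and Tom+; bars are 95% counting intervals, groups with a gene at 0 UMIs are left out, and Ciart is at 1 UMI in s0, macrophage-like and lymphocyte-like cells of both libraries and in Tom+ endothelial-like cells, where the bars are not reliable. Clusters h9 and h10 lie to the right of the other large hepatocyte clusters in both libraries, and h7 lies near the low end at 0.54 and 0.63.

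Over the 8 clusters of 100 or more cells in both libraries, which leave out h9 and h10, the members differed in how far they ranged. Per2 ran from 12.5 CPM (h7) to 50.3 CPM (h5) in Tom- and from 15.0 (h7) to 56.3 CPM (h5) in Tom+. Arntl ran from 4.28 (h6) to 14.4 CPM (h0) in Tom- and from 4.80 (h6) to 15.0 CPM (h0) in Tom+. Clock ranged 1.498-fold in Tom- and 1.502-fold in Tom+, and Nr1d1 1.62-fold in Tom- and 1.51-fold in Tom+. Cluster h5, with 9 zone 1 markers and a median of 24543 UMIs, held the highest Tom- level of 8 of the 10 genes, and h0, with no zone markers and a median of 24078 UMIs, that of Arntl and Npas2. In Tom+ h5 held the highest level of Per1, Per2, Per3, Cry1 and Ciart, and h0 that of the other 5. These were the 2 clusters with the lowest median UMIs of the 8, and the part of depth in their levels was not tested. The hepatocyte class also held cluster h11, led by cholangiocyte genes, and h13, led by macrophage genes, and without both the contrast was 1.06 in Tom- and 1.30 in Tom+.

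From cell to cell, r was low for all pairs and higher among the E-box genes than among the activators. Pearson r was taken over 11067 Tom- and 10026 Tom+ hepatocytes on residuals that allow for depth, as a description without a test, since cells of 1 library share its handling and counts are sparse. Over the 15 pairs among Nr1d1, Nr1d2, Per1, Per2, Per3 and Ciart the median r was 0.120 in Tom- and 0.161 in Tom+. Over the 3 activator pairs it was 0.019 and 0.024, and over the 18 pairs between the limbs 0.023 and -0.023. Sparser counts lower r, and the activators were counted at lower CPM than Per1, Nr1d1 and Nr1d2. The part of this in the gap between the 2 sets was not tested. Clock with Per1, a pair between the limbs, was at 0.12 and 0.07, above each activator pair. For comparison, the median r of a member with all other genes at 10 CPM or more lay between -0.007 and 0.044. Pairs at 0.16 or more in both libraries were Nr1d1 with Nr1d2 (0.19 and 0.19), Per1 with Nr1d2 (0.21 and 0.18), Per1 with Per2 (0.17 and 0.19) and Per1 with Nr1d1 (0.21 and 0.16). Pairs with Per3 were wider apart between the libraries, at 0.12 in Tom- and 0.33 in Tom+ with Per2, and at 0.12 and 0.26 with Nr1d2. Npas2 with Per3 was at -0.03 and -0.11, the lowest r of Tom+.

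Between the limbs 6 of 18 pairs were below 0 in Tom- and 12 in Tom+. Without h9 and h10 these counts were 6 and 9, and the median of the E-box pairs was 0.117 in Tom- and 0.127 in Tom+. Position and depth both moved with these genes, with r of Per2 with the lobule score at -0.25 in Tom- and -0.20 in Tom+, and r of Nr1d1 with log UMIs at -0.19 and -0.14. Within position bins the median of the E-box pairs was 0.105 in Tom- and 0.136 in Tom+, and within the 3 depth ranges it was 0.113 and 0.144. With cells thinned to 5000 UMIs, which makes counts sparser, it was 0.029 and 0.043.

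**Figure D4:**
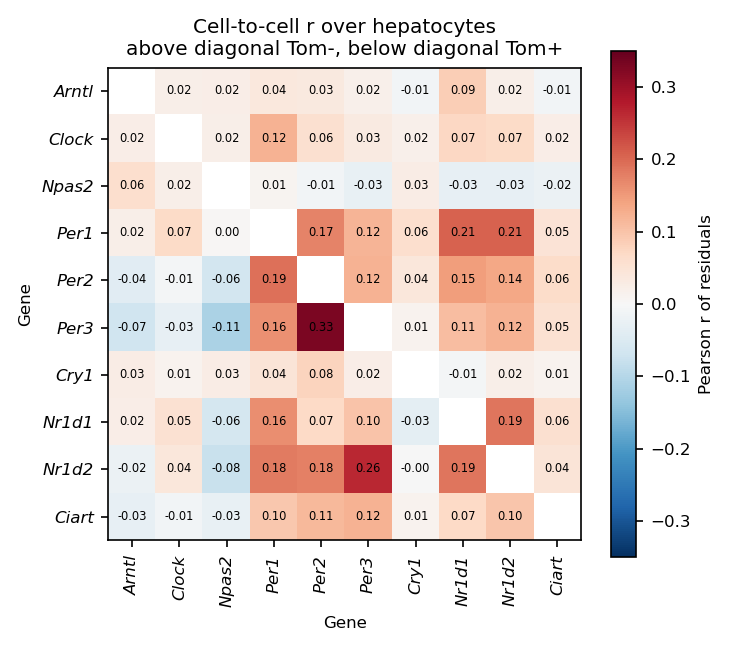
Pearson r between each pair of the 10 clock genes (both axes), with Tom- hepatocytes above the diagonal and Tom+ hepatocytes below it, on depth-adjusted residuals; colour and printed number both give r. The E-box genes form the block of higher r, with a median of 0.120 in Tom- and 0.161 in Tom+, and Npas2 with Per3 is the lowest pair of Tom+ at -0.11.

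For each member the 3 genes outside the lists with the highest r in both libraries were taken. By the lower r of the 2 libraries Per1 had the closest neighbours. They were Pcyt2 of phospholipid synthesis (0.36 in Tom- and 0.32 in Tom+), Herpud1 of the endoplasmic reticulum stress response (0.34 and 0.29) and Tat, tyrosine aminotransferase (0.37 and 0.29). Per2 was closest to Ptgds (0.33 and 0.25), Ttc23 (0.25 and 0.26) and the amino acid transporter Slc7a2 (0.27 and 0.24). Nr1d1 and Nr1d2 were both closest to L1Md_A, a custom feature for a LINE-1 element, at 0.39 and 0.28 for Nr1d1 and 0.29 and 0.30 for Nr1d2. Next for both was the RNA helicase gene Ddx17, and L1Md_A was also the first neighbour of Clock (0.18 and 0.15) and the third of Arntl. Several members on both limbs thus shared neighbours. Per3 was closest to Rsrp1 (0.19 and 0.31), with Pcyt2 also among its neighbours, and Npas2 to Clpx, of the mitochondrial protease, at no more than 0.11. Cry1 was closest to Etnppl, the lyase of phosphoethanolamine (0.13 and 0.11), and next to Tat and Hal, enzymes of tyrosine and histidine breakdown. Ciart was closest to Ftcd (0.10 and 0.11) and Uroc1, both enzymes of histidine breakdown. Hal is one of the zone 1 markers, and Ptgds, Etnppl and Ftcd were among the leading genes of h5, a cluster with zone 1 markers higher. The r with neighbours was not taken within position bins or depth ranges, so the part of position and depth in it was not tested. Within the lists the widest gap between libraries was that of Per3 with Dbp, at 0.19 in Tom- and 0.50 in Tom+, followed by Per3 with Tef at 0.15 and 0.39.

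The groups of other cells examined here were small beside the hepatocytes, and their profiles held much hepatocyte RNA. Larger clusters that passed the filters had markers of other cells higher but were left out unnamed. Cluster c1 held 926 Tom- and 642 Tom+ cells, with 11 macrophage and 11 stellate or fibroblast markers higher. Cluster c9 held 1338 and 873, with 10 endothelial markers higher, and c12 1532 and 929, with 11 macrophage markers higher. Clock genes were not examined in these clusters. Barcodes with 500 to under 4000 genes were clustered on their own, which gave endothelial-like (197 Tom- and 141 Tom+ cells), macrophage-like (305 and 192), stellate or fibroblast-like (254 and 188), neutrophil-like (105 and 67) and lymphocyte-like groups (251 and 152). Of the clusters without a name but with leading genes of their own, s0, s10 and s11 were examined. Others, such as s6 (212 and 100 cells; led by H2-Eb1, H2-Ab1 and Cd74), were not. Cluster s0 (297 and 158 cells) was led by Nr1h5, Adamtsl2, Sema6c and Rem1, with 11 stellate or fibroblast markers higher. Cluster s10 (530 and 272) was led by Hpgds, Abcg3 and Rgs1, with 12 macrophage markers higher. Cluster s11 (638 and 372) was led by Dll4, Btnl9 and Ushbp1, with 10 endothelial markers higher. The hepatocyte transcripts Alb, Apoa1 and Ttr stood at 63.9% to 99.0% of their level in hepatocytes in all of these groups. If these transcripts came wholly with hepatocyte RNA, that RNA would carry each clock gene at about the same percentage of its level in hepatocyte profiles under 4000 genes. Those profiles had Alb, Apoa1 and Ttr at 98.5% in Tom- and 94.6% in Tom+ of the hepatocyte level, so the reckoning is approximate. For Npas2 in s0 this comes to 9.95 CPM in Tom- and 6.22 CPM in Tom+, for Per1 in s0 to 107.0 and 85.0 CPM, and for Per1 in neutrophil-like cells to 111.6 and 96.0 CPM. For Nr1d1 in s10 it comes to 89.1 and 93.9 CPM. Levels were compared with hepatocyte profiles of the same range of genes (3929 Tom- and 1178 Tom+ cells). These profiles were deeper, with medians of 10465 and 9936.5 UMIs, against 4230.5 and 3366 in s10 and 1716 and 1296 in macrophage-like cells. Their make-up also differed by library. Cluster s4 held 2654 Tom- and 82 Tom+ of these cells, and s2, with Glul among its leading genes, 160 and 577. The part of depth and make-up in the differences was not tested.

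Several clock genes stood at levels that differed from those of hepatocyte profiles in both libraries. In s0 Npas2 was at 44.5 CPM in Tom- and 53.8 CPM in Tom+, against 13.3 and 9.74 CPM in the hepatocyte profiles, a log2 difference of 1.75 and 2.46. Per1 in s0 was at 255.5 and 275.3 CPM against 142.5 and 133.1 CPM, a log2 difference of 0.84 and 1.05. Npas2 and Per1 were thus both higher in s0 although one belongs to the activators and the other to the E-box genes. They were 2 of 9 clock genes past 1.5-fold higher there in each library, where 41.6% of all genes in Tom- and 44.9% in Tom+ were higher. The share of clock genes was thus below that of all genes. The median log2 difference in s0 was -0.02 and 0.13 over the clock genes and 0.40 and 0.46 over all genes. For the other 8 members the interval of the difference held 0 in both libraries. This includes Cry1 (-0.56 on 17 UMIs and -1.11 on 4), which was past 1.5-fold lower in Tom+.

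In s10 Nr1d1 was at 55.2 CPM in Tom- and 50.8 CPM in Tom+, against 127.9 and 136.0 CPM in the hepatocyte profiles (-1.21 and -1.42), and Per2 at 11.04 and 13.6 CPM against 27.4 and 35.1 CPM (-1.31 and -1.37). Per1 was higher in s10 at 227.1 and 209.2 CPM (0.67 and 0.65). The Nr1d1 level of s10 was thus below, and the Npas2 and Per1 levels of s0 above, what hepatocyte RNA would carry by that reckoning in both libraries. A level below the reckoning means that its premise did not hold for that gene and group. Per1 in macrophage-like cells was below it too, at 85.9 CPM against 135.1 CPM in Tom- and 89.4 against 131.3 CPM in Tom+. The reckoning therefore cannot decide which levels belong to the other cells themselves. In s10 1 clock gene was past 1.5-fold higher and 4 were lower in each library (Per2, Cry1 and Nr1d1 in both, Npas2 in Tom- and Per3 in Tom+), against 39.3% and 39.6% of all genes higher and 14.7% and 17.3% lower. The median log2 difference in s10 was -0.38 and -0.52 over the clock genes and 0.34 and 0.33 over all genes. In s11 Nr1d1 was at 82.2 and 98.3 CPM (-0.64 and -0.47) and Nr1d2 at 54.4 and 67.4 CPM (-0.67 and -0.43). Hepatocyte RNA alone would carry 123.5 and 104.8 CPM of Nr1d1 and 83.5 and 69.9 CPM of Nr1d2 in s11 by the reckoning above, so that the Tom+ levels of s11 were close to it. Nr1d1 was also lower in lymphocyte-like cells at 68.8 and 70.5 CPM (-0.89 and -0.95) and in macrophage-like cells at 79.5 and 96.7 CPM (-0.69 and -0.49). In these 4 groups the interval of the Nr1d1 difference from hepatocyte profiles lay below 0 in both libraries, which for s11 in Tom+ does not set it apart from hepatocyte RNA. Macrophage-like cells also had a lower Per2, at 10.3 and 12.1 CPM (-1.42 and -1.54), and 7 of 9 clock genes in Tom- and 3 of 8 in Tom+ were past 1.5-fold lower in them, where 9.66% and 16.6% of all genes were lower. Per1 was higher in neutrophil-like cells, at 246.0 and 252.3 CPM (0.79 and 0.92).

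Endothelial-like cells that passed the filter of 2000 genes (422 Tom- and 155 Tom+) were compared with hepatocytes. They had 10 endothelial markers higher, 1 of them among the top 10 genes, and also 7 stellate or fibroblast markers higher. Against medians of 32389 and 35397 UMIs in hepatocytes, these endothelial-like cells had 10423.5 and 7193, and the part of depth was not tested. Per1 was at 85.5 and 70.8 CPM in them (-0.87 and -0.83), Nr1d1 at 67.7 and 63.5 CPM (-0.84 and -0.92), Nr1d2 at 40.0 and 42.7 CPM (-1.23 and -1.11) and Per3 at 7.16 and 6.74 CPM (-0.93 and -1.67). These 4 of 8 clock genes were past 1.5-fold lower in each library, where 16.7% of all genes in Tom- and 17.3% in Tom+ were lower. The other members that reached the minimum were lower by less than that in both libraries, with Clock at -0.53 and -0.51, Npas2 at -0.46 and -0.47, Cry1 at -0.54 and -0.34 and Per2 at -0.41 and -0.27. In Tom+ the intervals of Npas2, Cry1 and Per2 held 0. Alb, Apoa1 and Ttr were at 113.5% and 117.2% of their level in hepatocytes, no lower than in hepatocytes. The endothelial-like profiles with 500 to under 4000 genes did not share this pattern, with Per1 at 147.1 and 125.2 CPM and Nr1d1 at 115.3 and 101.7 CPM. The gene ranges of the groups overlap from 2000 to under 4000 genes. Both these profiles and s11 can therefore share barcodes with the group of 2000 genes or more. Against hepatocytes 1 of 8 clock genes was past 1.5-fold in the profiles of 500 to under 4000 genes in each library. Per3 was higher in Tom- and Npas2 lower in Tom+, where 20.6% of all genes were higher in Tom- and 7.48% were lower in Tom+.

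**Figure D5:**
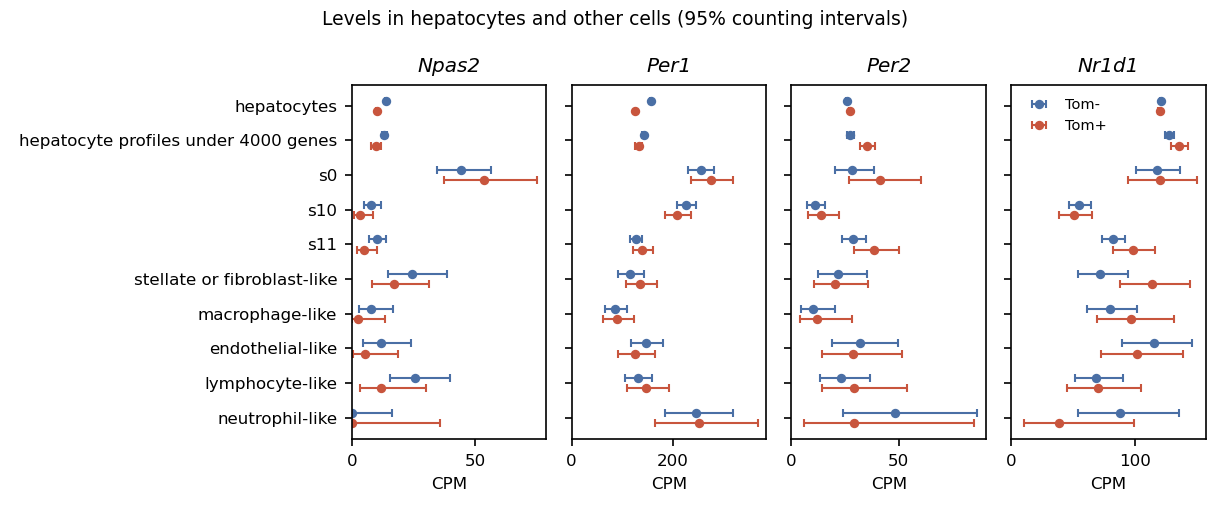
Level in CPM (x axis) of Npas2, Per1, Per2 and Nr1d1 in hepatocytes, in hepatocyte profiles under 4000 genes and in 8 groups of other cells (y axis), for Tom- and Tom+; bars are 95% counting intervals. Npas2 reaches 44.5 and 53.8 CPM in s0, and Nr1d1 in s10 is at 55.2 and 50.8 CPM against 127.9 and 136.0 CPM in hepatocyte profiles of the same range of genes.

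Whether the balance of the limbs differed between hepatocytes and the examined groups of other cells of the same library was read from the same contrast. Ciart was at 1 UMI in s0 and in lymphocyte-like cells of both libraries and in Tom+ endothelial-like cells of 2000 genes or more, where the interval of its log level is not reliable, so these differences are given without Ciart. In s0 the contrast without Ciart was lower than in hepatocytes by 0.65 (0.31 to 0.98) in Tom- and 0.63 (0.16 to 1.10) in Tom+. With Ciart kept the s0 difference was -0.89 in Tom- and -0.75 in Tom+. With Ciart kept and Npas2 left out it was -0.43 (-1.06 to 0.20) and -0.07 (-0.84 to 0.70). Both of these intervals held 0, so the lower s0 contrast rested largely on Npas2. In endothelial-like cells of 2000 genes or more the contrast was lower than in hepatocytes without Ciart by 0.61 (0.36 to 0.85) in Tom- and 0.53 (0.07 to 0.98) in Tom+. In Tom-, where Ciart had 9 UMIs, it stayed below 0 with each gene left out, from -0.22 without Arntl to -0.61 without Ciart, although the interval then reached above 0 in 1 of 9 cases. With the limbs summed the difference from hepatocytes was -0.36 and -0.47 in s0 and -0.51 and -0.44 in these endothelial-like cells, in Tom- and Tom+. Cluster s11 also had endothelial markers higher and can share barcodes with these cells. Its mean-log difference from hepatocytes was 0.02 (-0.29 to 0.33) in Tom- and -0.10 (-0.61 to 0.41) in Tom+. With the limbs summed it was -0.29 (-0.51 to -0.07) and -0.51 (-0.83 to -0.20), so the value of s11 depended on the form of the contrast. Lymphocyte-like cells gave -0.87 (-1.36 to -0.39) in Tom- and -0.02 (-0.95 to 0.91) in Tom+ without Ciart. Cluster s10 gave -0.45 (-0.77 to -0.13) in Tom- and -0.31 (-0.91 to 0.28) in Tom+ without Ciart, which was at 0 UMIs in Tom+. With Ciart kept it gave -0.32 (-0.68 to 0.05) in Tom-. The other groups had genes at 0 or 1 UMI and are given with the limbs summed only. Endothelial-like profiles of 500 to under 4000 genes differed from hepatocytes by -0.26 (-0.75 to 0.22) in Tom- and 0.42 (-0.37 to 1.21) in Tom+. In Tom+ this sign was opposite to that of the endothelial-like cells of 2000 genes or more, but the difference between these groups was not tested. Stellate or fibroblast-like cells gave -0.46 (-0.94 to 0.02) and 0.39 (-0.26 to 1.03), macrophage-like cells -0.06 (-0.65 to 0.53) and 0.21 (-0.58 to 1.01), and neutrophil-like cells 0.37 (-0.49 to 1.23) and -0.21 (-1.44 to 1.03).

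Between libraries, Tom+ minus Tom- of the mean-log contrast was 0.12 (-0.48 to 0.71) in s11, an interval that holds both 0 and the hepatocyte value of 0.24, so a shift of that size was not detectable there at this depth. With the limbs summed it was 0.10 in hepatocytes, -0.01 (-0.48 to 0.45) in s0, -0.03 (-0.48 to 0.43) in s10 and -0.13 (-0.51 to 0.26) in s11. It was 0.94 (0.14 to 1.75) in stellate or fibroblast-like cells and 0.73 (0.06 to 1.39) in s7, the 2 of 9 groups of 500 to under 4000 genes whose interval did not hold 0. Cluster s7, also unnamed, had 0 markers of other cell types higher. Its Alb, Apoa1 and Ttr were at 94.5% and 94.6% of their level in hepatocytes, so it gives no value for another cell type. In lymphocyte-like cells the difference was 0.76 (-0.12 to 1.63).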

How the data were processed

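Both libraries were made with the 10x Genomics Flex probe assay. The deposited files hold raw UMI counts per gene and barcode, made by the authors with Cell Ranger 7.2.0 on mm10 (submitters' processing notes) and not normalised. A custom LINE-1 feature was part of the probe set. Cells with 2000 to 10000 genes, at most 100000 UMIs and a mitochondrial share of at most 0.05 were kept (20159 Tom- and 13378 Tom+), as in the study's methods. They were clustered with scanpy 1.11.5 (Python 3.11.15; 2000 variable genes, 30 components, 20 neighbours, Leiden resolution 0.8), clusters under 0.75 times the median gene number or at 2.5-fold Ptprc, Dcn or Pecam1 were left out, and the rest was clustered again. Scrublet marked 0 cells in each library, so it did not work and doublets were kept. UMIs were summed per library and class and scaled to CPM. Levels have exact Poisson, ratios exact conditional and the phase contrast delta-method intervals (scipy 1.17.1). The 1.5-fold counts used a pseudocount of 0.5 UMIs. Correlations used analytic Pearson residuals (theta 100). The steps were tested on simulated counts. Barcodes of 500 to under 4000 genes were clustered at another resolution after the data were seen, and named only with 2 or more of a type's markers among the top 10 genes. Named genes are the members, the accessory and output lists (some results are not reported here), and the 3 closest genes of each member. Members and lists were chosen with earlier results of these data known.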

Additional observations from a re-analysis of the deposited data

Results flagged for a closer look

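For 2 clock genes the log2 ratio of Tom+ over Tom- had opposite signs in hepatocytes and in other cells, with intervals that excluded 0 on both sides. Clock was at -0.19 in hepatocytes and 0.47 in cluster s11, whose cells had endothelial markers higher. In s11 Alb, Apoa1 and Ttr were at 96.5% of their hepatocyte level in Tom- and 77.1% in Tom+. Nr1d2 was at -0.031 in hepatocytes and 1.07 in macrophage-like cells. It was at 43.6 CPM in Tom- and 91.8 CPM in Tom+ macrophage-like cells, where hepatocyte RNA would carry 81.9 and 89.6 CPM by the reckoning above. Both cases were picked from all 10 clock genes over all examined groups of other cells and s7. With 1 library per group the differences between the classes were not tested.

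The clock genes were also counted in barcodes above 100000 UMIs, which the filters leave out. Their summed level there was 467.8 CPM in Tom- (360 barcodes) and 412.9 CPM in Tom+ (1239 barcodes), against 487.5 and 452.3 CPM in hepatocytes.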

How the results depend on the processing

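No paired analysis was possible because Tom- and Tom+ are 1 library each, so no replicate could be left out either. Alternatives without clusters h9 and h10, without h11 and h13, with 1 gene left out of the phase contrast and in barcodes with 500 to under 4000 genes, and those of the E-box pairs, were chosen after seeing the data. The Tom+ minus Tom- phase contrast of hepatocytes, 0.24, was 0.33 with cells thinned to 5000 UMIs, 0.28 as a mean over cells of CPM and 0.10 with each limb summed. It was 0.42 without Arntl, 0.32 without Per1, 0.12 without Per3 and 0.081 without Npas2. Without h9 and h10 it was -0.0072 (-0.053 to 0.038), an interval that held 0. Median-of-ratios scaling gives no separate contrast value. The 1 clock gene past 1.5-fold in Tom+ became 0 without h9 and h10, at a fold limit of 2 and at a minimum of 50 CPM. The percentage of all genes past 1.5-fold went from 2.02 to 8.25 with no CPM minimum. The clock genes lower at the central vein end of Tom+ went from 1 to 2 without h9 and h10. The endothelial-like count of 4 in each library was 1 and 1 in barcodes with 500 to under 4000 genes. The cause of these moves was not tested. The median r over all member pairs was 0.037 in Tom- and 0.026 in Tom+. Within position bins it was 0.029 and 0.038, and at 5000 UMIs per cell it was 0.0071 and 0.0084. The median over the E-box pairs, 0.120 and 0.161, was 0.136 in Tom+ within bins and 0.029 and 0.043 at 5000 UMIs per cell. Thinning makes counts sparser and lowers r by itself, so these values do not measure the part of depth. The other 40 summary values moved by less than their interval or by less than 1.5 times. Of the remaining values, nearly all ratios of single genes, 44 moved and 138 did not. Clock genes kept among the variable genes are left out of these counts, since none was variable over all cells and the hepatocyte class was therefore the same. Over its alternatives the Tom+ over Tom- log2 ratio ran from 0.11 to 0.68 for Per3 and from -0.56 to -0.28 for Npas2, and that of Per2 changed sign without h9 and h10, with a range of -0.10 to 0.091.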
